A study of Homo sapiens with 14 samples.

Results

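The H/ACA and small Cajal body RNAs were followed in Panc-1 and AsPC-1, established lines of human pancreatic cancer, by RNA sequencing of total RNA. Members were the rows with a symbol starting with SNORA or SCARNA, without rows marked as duplicates, that reached 1 RPKM in at least 2 of the 14 libraries. RPKM is reads per kilobase of gene per M mapped reads. This left 120 of the 128 such rows among 23040 rows in all, made up of 96 SNORA and 24 SCARNA members. The levels just inside the rule belonged to SNORA29 (1 RPKM or more in 8 libraries), SNORA16B (7), SNORA70B (5) and SNORA11C (5). Just outside it were SNORA70D, SNORA70E, SNORA70F and SNORA70G, which passed 1 RPKM in 1 library and peaked at 1.04 to 1.58 RPKM. In all 14 libraries, 116 members had 1 RPKM or more.

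H/ACA RNAs guide the enzyme dyskerin to uridines that are turned into pseudouridine. Each folds into a pair of hairpins, with the box H hinge (ANANNA) between them and an ACA triplet just before the 3′ end. Those named SNORA act in the nucleolus, mostly on ribosomal RNA. The SCARNA group sits in Cajal bodies, where spliceosomal RNAs are modified, and holds H/ACA RNAs, C/D RNAs, which guide ribose methylation, and RNAs with both kinds of domain. Most human members are cut out of the introns of host genes, many of which code for ribosomal proteins or translation factors. Their assembly and stability rest on the core proteins dyskerin (DKC1), NHP2, NOP10 and GAR1, which also bind the telomerase RNA TERC.

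In each line 7 conditions were sampled once: ANG (angiogenin, named hRNase5 in the labels) at 1 µg/ml for 1, 5 or 24 h, EGF (epidermal growth factor) at 50 ng/ml for 1, 5 or 24 h, and a mock library of untreated cells. The treatments were given to serum-starved cells, and the series title names ANG as a ligand of the EGF receptor. The time at which mock cells were taken is not given in the labels. With 1 library per group, the repeats were the lines, ligands or times across which a comparison was made, and nothing in the labels says that libraries came from separate cultures. The p-values therefore measure the spread between these libraries. Estimated depth was 11.1 to 16.7 M reads in Panc-1 and 18.7 to 23.7 M in AsPC-1. The keratins KRT8, KRT18 and KRT19 lay at 250 to 523 RPKM in Panc-1, against 362 to 892 RPKM in AsPC-1. EPCAM was at 4.88 to 5.58 RPKM in Panc-1, against 149 to 230 RPKM in AsPC-1, and CDH1 at 5.86 to 13.5 RPKM, against 21.3 to 89.3 RPKM. The mesenchymal marker VIM was at 2044 to 2755 RPKM in Panc-1, against 1269 to 1798 RPKM in AsPC-1. Of the fibroblast markers, COL1A1 reached 0.71 RPKM in Panc-1 and DCN 0.52 RPKM in AsPC-1. Blood and endothelial markers (PTPRC, HBB and PECAM1) stayed at or under 0.05 RPKM in every library.

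The sequences of 3 sets of members are shown because the levels below turn on them. They are the GENCODE release 29 transcripts of the same name, whereas positions are those of the deposited rows, in hg19. The first set holds the most abundant member and a pair that shares a host but not a level: SNORA27 (chr13:27829538-27829663, plus strand) lies in RPL21, and SNORA5A (chr7:45143948-45144081) and SNORA5B (chr7:45145567-45145698) lie on the minus strand in TBRG4. Capitals mark the match to ANANNA nearest the middle and the ACA within the last 10 nt.
SNORA27: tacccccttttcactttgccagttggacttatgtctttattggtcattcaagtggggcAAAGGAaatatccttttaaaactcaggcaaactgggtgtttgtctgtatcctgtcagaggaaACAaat
SNORA5A: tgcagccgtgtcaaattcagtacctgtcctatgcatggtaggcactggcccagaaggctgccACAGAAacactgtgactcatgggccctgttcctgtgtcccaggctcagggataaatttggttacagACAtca
SNORA5B: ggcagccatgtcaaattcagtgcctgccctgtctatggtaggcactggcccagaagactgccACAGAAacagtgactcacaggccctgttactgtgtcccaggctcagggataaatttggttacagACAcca

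The second set holds H/ACA members whose level differed between the lines, with capitals used in the same way. In SNORA41, ACA also stands 3 nt before the end and overlaps the ACA in capitals. SNORA41 (chr2:207026952-207027083, plus strand) and SNORA26 (chr4:53579416-53579537, plus strand) were lower in Panc-1. SNORA56 (chrX:154003273-154003401, plus strand), SNORA80B (chr2:10586840-10586975, minus strand), SCARNA14 (chr15:66639544-66639680, minus strand) and SCARNA15 (chr15:83424697-83424823, plus strand) were higher in Panc-1.
SNORA41: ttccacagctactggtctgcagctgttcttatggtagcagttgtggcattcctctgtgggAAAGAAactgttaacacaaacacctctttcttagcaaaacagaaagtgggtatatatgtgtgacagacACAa
SNORA26: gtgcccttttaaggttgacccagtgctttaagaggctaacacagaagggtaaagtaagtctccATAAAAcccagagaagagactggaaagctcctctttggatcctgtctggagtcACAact
SNORA56: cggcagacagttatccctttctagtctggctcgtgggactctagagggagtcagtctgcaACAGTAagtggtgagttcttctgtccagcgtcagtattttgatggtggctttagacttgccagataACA
SNORA80B: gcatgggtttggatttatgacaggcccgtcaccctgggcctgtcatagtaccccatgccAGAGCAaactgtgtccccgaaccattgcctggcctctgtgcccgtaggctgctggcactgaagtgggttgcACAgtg
SCARNA14: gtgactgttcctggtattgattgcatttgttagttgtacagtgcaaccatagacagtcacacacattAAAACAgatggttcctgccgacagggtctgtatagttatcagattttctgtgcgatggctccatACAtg
SCARNA15: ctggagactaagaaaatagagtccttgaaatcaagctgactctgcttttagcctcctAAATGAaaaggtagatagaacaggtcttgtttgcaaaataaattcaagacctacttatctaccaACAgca

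The third set holds 2 longer small Cajal body RNAs with C/D boxes. SCARNA6 (chr2:234197322-234197587) and SCARNA5 (chr2:234184372-234184649), both on the plus strand within ATG16L1, had large line differences. Here capitals mark TGATGA near the 5′ end, which matches box C, and CTGA near the 3′ end, which matches box D.
SCARNA6: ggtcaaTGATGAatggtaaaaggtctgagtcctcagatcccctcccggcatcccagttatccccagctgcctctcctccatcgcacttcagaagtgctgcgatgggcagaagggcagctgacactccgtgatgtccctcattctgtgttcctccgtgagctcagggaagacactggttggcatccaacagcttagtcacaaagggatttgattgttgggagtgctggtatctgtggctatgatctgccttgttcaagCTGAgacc
SCARNA5: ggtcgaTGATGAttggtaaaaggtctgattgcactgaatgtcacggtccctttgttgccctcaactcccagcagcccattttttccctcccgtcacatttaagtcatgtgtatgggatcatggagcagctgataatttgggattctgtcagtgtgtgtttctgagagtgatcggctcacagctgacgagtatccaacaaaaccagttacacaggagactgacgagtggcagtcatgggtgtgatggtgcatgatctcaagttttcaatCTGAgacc

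A GENCODE transcript was found for 118 of the 120 members, 10 of them under a newer name, and 117 were within 7 nt of the length of their row. SCARNA17, with 144 nt in GENCODE against a row of 421 bp, was the exception. ACA stood in the last 10 nt of 89 of 96 SNORA members (92.7%) and 15 of 22 SCARNA members (68.2%), against 11 of 217 SNORD rows (5.07%), the C/D RNAs of the same files. At exactly 3 nt before the end it was found in 72 SNORA members (75%), 11 SCARNA members and 3 SNORD rows. ANANNA within 20 nt of the middle was less specific: 91 SNORA members (94.8%), 16 SCARNA members and 142 SNORD rows (65.4%) held it. The pair of TGATGA in the first 20 nt and CTGA in the last 20 nt was in 0 of 96 SNORA members, 5 of 22 SCARNA members and 155 of 217 SNORD rows (71.4%). The motif TGAG, searched anywhere in the RNA because it is part of the Cajal body box, was in 39 of 96 SNORA members (40.6%), 15 of 22 SCARNA members and 188 of 217 SNORD rows (86.6%). Only the sense strand was searched, and a match is a match of letters alone.

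Mean levels of the members ran from 0.64 to 18862 RPKM. By mean RPKM over the 14 libraries, 14 members were at 5000 or more, 47 between 1000 and 5000, 40 between 100 and 1000, 15 between 5 and 100, and 4 under 5. SNORA27, a guide to the large-subunit ribosomal RNA, led with a mean of 18862 RPKM. In Panc-1 it had 8946, 19565 and 41765 RPKM as lowest, median and highest value, and in AsPC-1 3851, 17439 and 29635 RPKM. The ranges of the lines overlapped, with both the lowest and the highest value higher in Panc-1. SNORA81 followed with 8878, 18104 and 41362 RPKM in Panc-1 and 5507, 16339 and 26469 RPKM in AsPC-1. Its row also spans the microRNA MIR1248, and reads of the pair cannot be told apart. SNORA5A, a guide to the small-subunit ribosomal RNA, had a median of 10219 RPKM in Panc-1, against 17270 RPKM in AsPC-1. SNORA45, in RPL27A, had medians of 10885 RPKM in Panc-1, against 15532 RPKM in AsPC-1.

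SNORA57 (median 9661 RPKM in Panc-1, against 12069 RPKM in AsPC-1), SNORA23 (9027 RPKM in Panc-1, against 6710 RPKM in AsPC-1), SNORA18 (6423 RPKM in Panc-1, against 5853 RPKM in AsPC-1) and SNORA31 (4787 RPKM in Panc-1, against 5918 RPKM in AsPC-1) were also among the 12 highest. EIF4A2, the gene of a translation initiation factor, holds 3 of the 12, SNORA81, SNORA4 and SNORA63. SNORA4 had medians of 8324 RPKM in Panc-1, against 7231 RPKM in AsPC-1, and SNORA63 of 5717 RPKM in Panc-1, against 5345 RPKM in AsPC-1. The highest member of a library was SNORA27 in 6 libraries, and SNORA81 or SNORA41 in the others. The 12 highest members together took 36.3 to 50.0% of the members' reads.

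**Figure D1:**
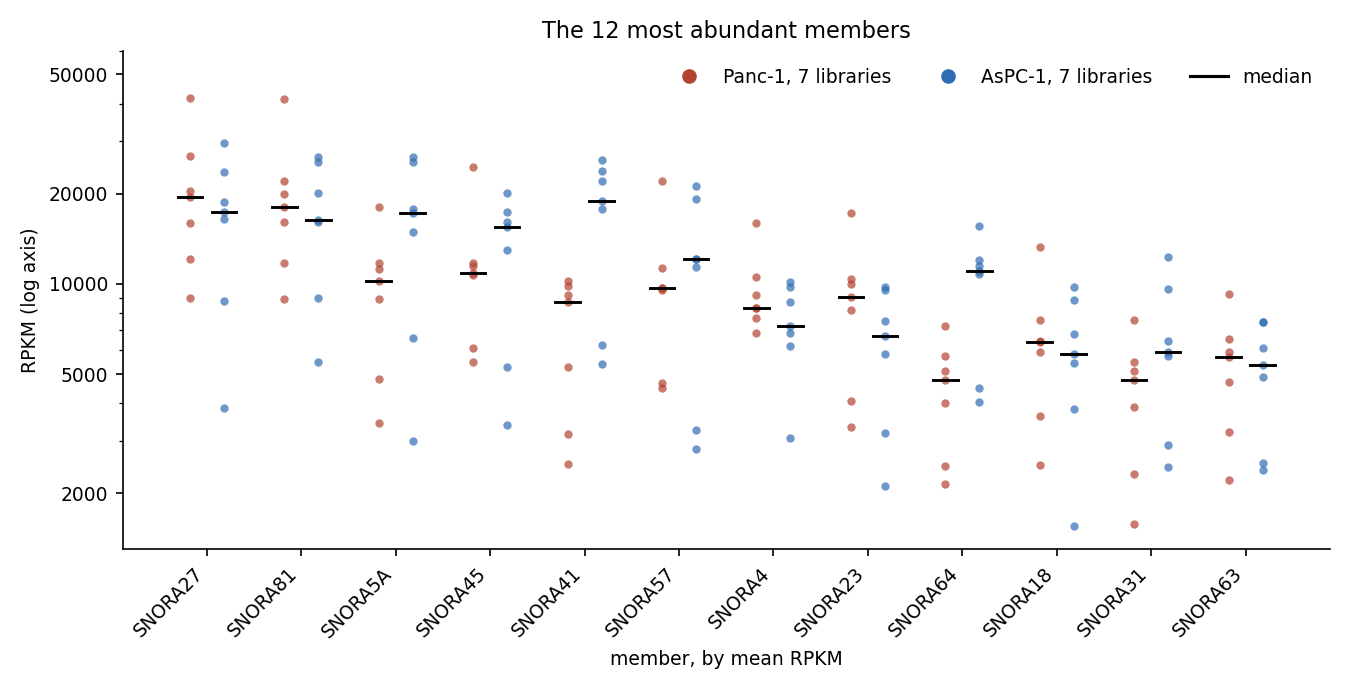
Level in RPKM (log axis) of the 12 members with the highest mean, 1 point per library, with 7 Panc-1 libraries at the left and 7 AsPC-1 libraries at the right of each pair and a bar at the median. The ranges of the lines overlapped for all 12; SNORA41 had medians of 8713 RPKM in Panc-1, against 18899 RPKM in AsPC-1.

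Members of 1 host differed widely in level. In TBRG4, a gene of mitochondrial RNA metabolism, SNORA5A averaged 12852 RPKM, SNORA5C 1502 RPKM and SNORA5B 11.8 RPKM. SNORA5A and SNORA5B are 89.6% identical, as the sequences above show, and the ratio of their means was 1087. SNORA29, in the chaperonin gene TCP1, averaged 2.02 RPKM, with 1 to 5 reads per library in Panc-1, against 4 to 15 in AsPC-1. Likewise SNORA16A (2253 RPKM) was 1655 times SNORA16B, to which it is 87.4% identical, and SNORA70 (4035 RPKM) was 4527 times SNORA70B, at 90.4% identity. SNORA16B had 0 to 6 reads per library in Panc-1, against 1 to 10 in AsPC-1. SNORA70B had 0 to 4 reads in Panc-1, against 0 to 7 in AsPC-1. SNORA11C, on the X chromosome in ZNF157, had 1 to 3 reads in Panc-1 and 0 or 1 in AsPC-1. How reads from near-identical copies were assigned is not given in the sources used here, so the level of each copy is uncertain for SNORA7A and SNORA7B (98.6% identical), SNORA36A and SNORA36C (97.0%), SNORA80 and SNORA80B (91.9%), SNORA14A and SNORA14B (91.1%) and SNORA71B and SNORA71D (90.3%), and for the pairs just named.

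Among the SCARNA members, SCARNA5 was the most abundant (mean 4831 RPKM), ahead of SCARNA6 (1551 RPKM), SCARNA16 (1454 RPKM), SCARNA4 (1398 RPKM) and SCARNA18 (1064 RPKM). SCARNA2 (897 RPKM), SCARNA1 (857 RPKM), SCARNA3 (770 RPKM), SCARNA7 (729 RPKM), SCARNA13 (724 RPKM), SCARNA10 (678 RPKM), SCARNA12 (624 RPKM) and SCARNA27 (530 RPKM) formed a middle group. SCARNA14 (499 RPKM), SCARNA22 (399 RPKM), SCARNA20 (303 RPKM), SCARNA8 (282 RPKM), SCARNA11 (246 RPKM) and SCARNA9 (208 RPKM) were lower. At the bottom were SCARNA15 (99.9 RPKM), SCARNA23 (88.9 RPKM), SCARNA21 (67.2 RPKM), SCARNA17 (42.9 RPKM) and SCARNA9L (27.5 RPKM). The ranges over libraries of all neighbours in this order overlapped. The SCARNA members together took 0.165 to 0.784% of the reads of a library, and the SNORA members 1.38 to 6.19%.

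The members' share of reads differed several-fold between libraries, and so did that of other short rows. In Panc-1 the members took 2.17% of the reads in the mock library, 3.52, 4.12 and 6.65% after ANG for 1, 5 and 24 h, and 1.73, 3.63 and 4.06% after EGF for 1, 5 and 24 h. In AsPC-1 they took 2.19% in the mock library, 6.28, 6.49 and 4.31% after ANG, and 4.95, 1.63 and 5.11% after EGF at the same times. Both mock libraries, EGF at 1 h in Panc-1 and EGF at 5 h in AsPC-1 were the low ones. All rows with a span under 400 bp took 6.22% in mock, 10.0, 11.4 and 16.5% after ANG and 5.11, 11.2 and 11.6% after EGF in Panc-1. In AsPC-1 they took 6.03% in mock, 15.5, 17.2 and 11.6% after ANG and 12.6, 5.29 and 13.5% after EGF. The libraries that were low for the members were low for these rows too. Members made up 30.2 to 40.1% of the reads in rows under 400 bp.

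**Figure D2:**
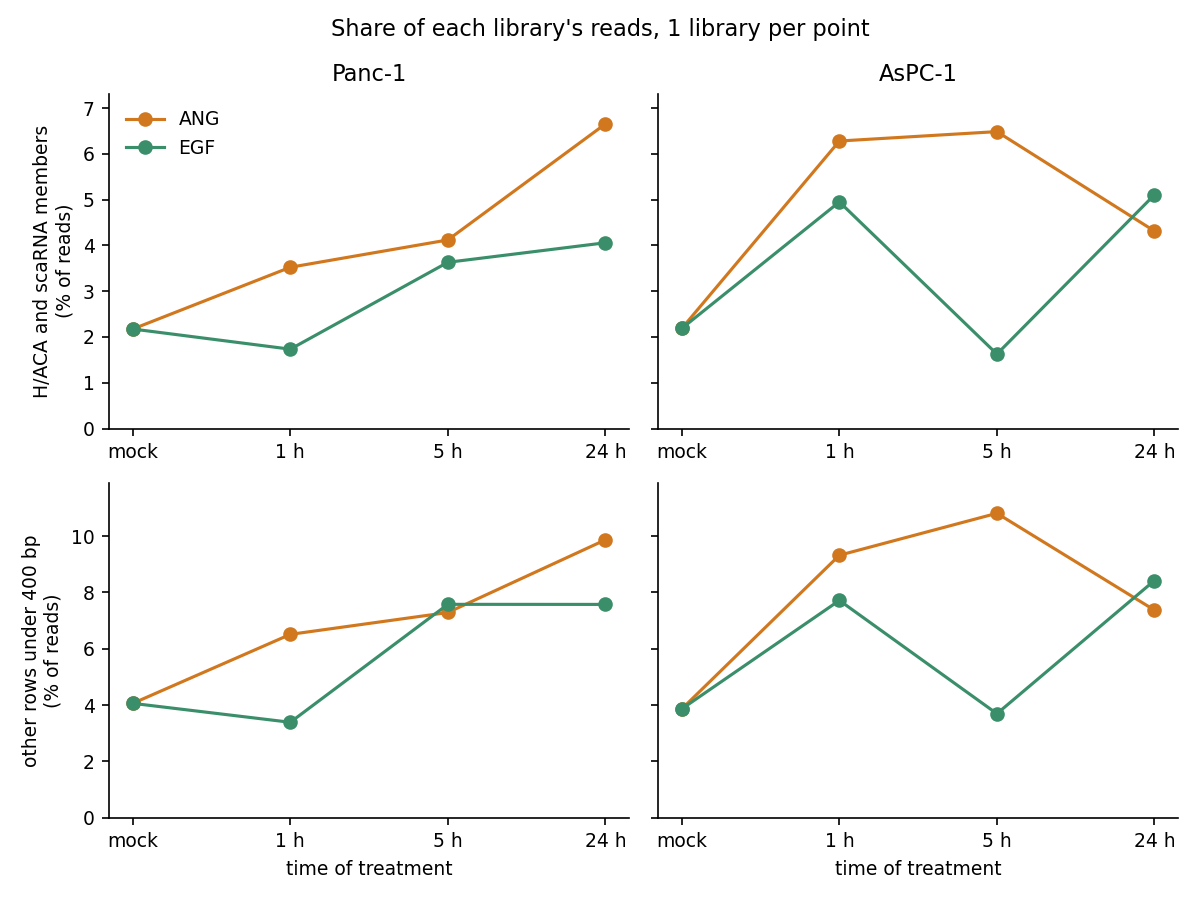
Share of each library's reads in the members (top) and in other rows with a span under 400 bp (bottom), in percent, by time of treatment, with ANG and EGF courses starting from the same mock library of each line and 1 library per point. The members' share was 1.73% after EGF at 1 h in Panc-1 and 1.63% after EGF at 5 h in AsPC-1, and the bottom panels had their low points in the same libraries.

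Averaged over 6 pairs of line and time, rows under 400 bp took 13.7% of the reads with ANG and 9.88% with EGF, a mean log2 ratio of 0.55, with ANG higher in 5 of 6 pairs. An exact two-sided sign-flip test gave p = 0.094, where 6 pairs allow no p below 0.031. Over 7 pairs of condition the same rows averaged 10.3% in Panc-1, against 11.7% in AsPC-1, a mean log2 ratio of -0.16 (exact two-sided sign-flip p = 0.594, higher in Panc-1 in 3 of 7 pairs, smallest possible p 0.016). Neither ratio exceeded the spread between pairs. Leaving out the EGF 1 h pair turned the direction of the line ratio, to 0.030.

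Each member's level was set against the share of reads in short rows that are no members, with the line means removed. The slope of log2(RPKM + 1) on the log2 of that share had a median of 1.19 over the 120 members and ranged from 0.01 to 1.66, where a slope of 1 is a level in proportion to the share. It was over 0.5 in 114 members (95.0%). Of 12780 rows with a span of 400 bp or more, 8 had such a slope, and the median over these 12780 rows was -0.08. SNORD rows had a median slope of 0.78 (n = 198) and microRNA rows of 0.39 (n = 285). Both kinds of row are counted in the share of short rows that are no members, so part of their slope is built in. These slopes describe 14 libraries that share 1 value per library and carry no test.

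SNORA27 lay at 8946 and 12102 RPKM in the Panc-1 libraries with EGF for 1 h and mock, where the share was low, and at 41765 RPKM with ANG for 24 h, where it was high. In AsPC-1 it lay at 3851 RPKM with EGF for 5 h and at 29635 RPKM with ANG for 1 h. The small Cajal body RNAs with longer rows moved less. SCARNA members with a span of 250 bp or more had a median slope of 0.79 (n = 10), and shorter ones of 1.27 (n = 14). SCARNA7 (chr3:160232695-160233024, minus strand, in KPNA4), a C/D RNA that guides methylation of the U1 spliceosomal RNA, had 615, 684 and 733 RPKM as lowest, median and highest value in Panc-1 and 642, 791 and 856 RPKM in AsPC-1. Its level spanned 1.39-fold over all 14 libraries, with a slope of 0.01. SCARNA17, with a row of 421 bp but 144 nt in GENCODE, spanned 1.64-fold. It lay at 36.0, 44.9 and 49.0 RPKM in Panc-1 and 32.5, 44.9 and 53.4 RPKM in AsPC-1. The remaining members with a slope under 0.5 were SNORA68 (0.46) and 3 of the 4 members with few reads, SNORA29, SNORA11C and SNORA70B. RMRP, the RNA of another nuclear enzyme, lay at 17306 to 51992 RPKM in Panc-1, against 10142 to 36485 RPKM in AsPC-1. RPPH1, listed with it, went the other way between the lines, at 10065 to 35438 RPKM in Panc-1, against 17092 to 57529 RPKM in AsPC-1.

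**Figure D3:**
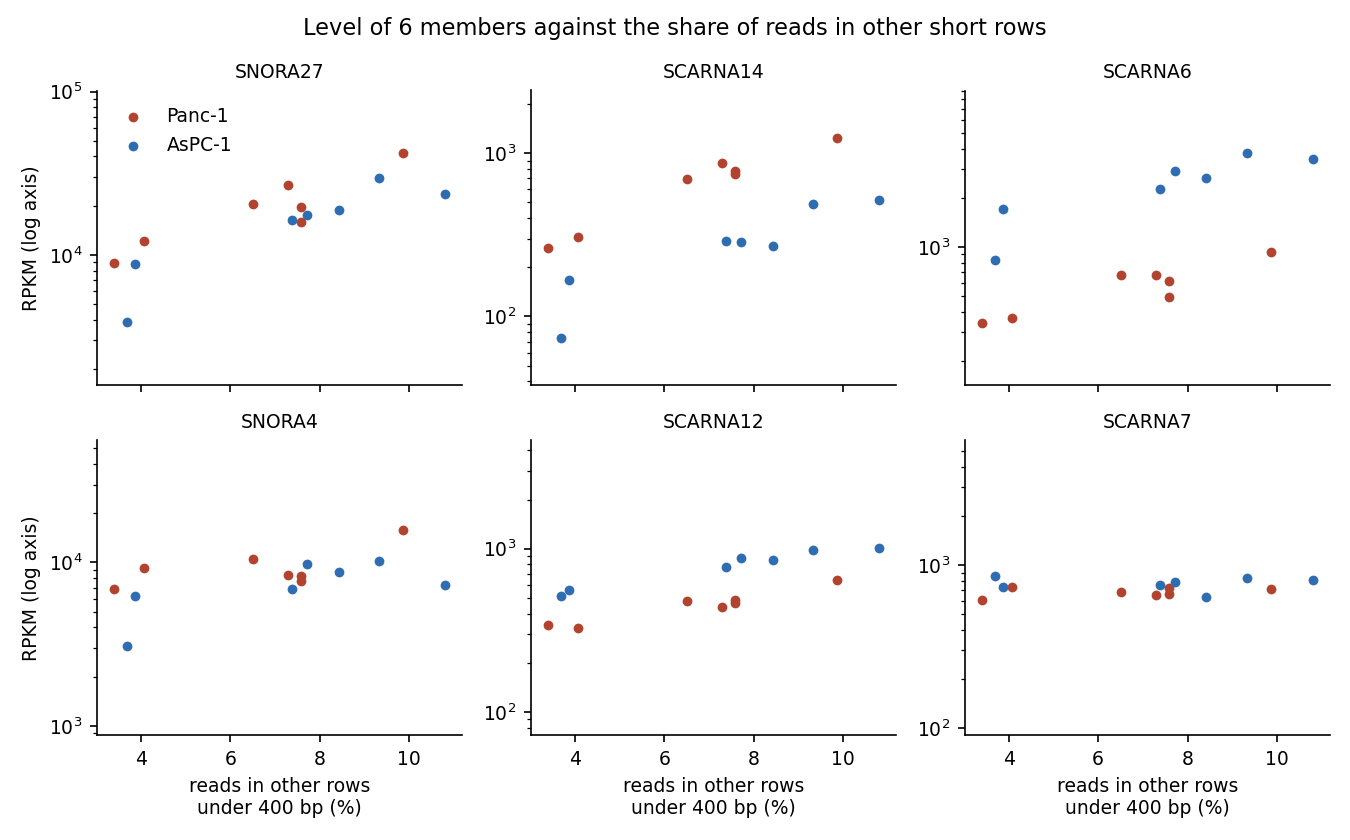
Level in RPKM (log axis, the same number of decades in each panel) of 6 members against the percent of reads in other rows under 400 bp, 1 point per library, Panc-1 in red and AsPC-1 in blue. SNORA27 lay higher at higher shares with a slope of 1.38 and SCARNA7 lay flat with a slope of 0.01, while SCARNA6 was lower in Panc-1 and SCARNA14 higher in Panc-1 at similar shares.

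Panc-1 and AsPC-1 were compared over 7 pairs of condition with limma on log2(RPKM + 1). Members were tested among the 13427 genes that reached 1 RPKM in 2 or more libraries, and p-values were adjusted over all of them with a threshold of 0.05. Of 120 members, 7 were higher and 20 lower in Panc-1, 22.5% in all, beside 68.8% of all genes tested (39.6% higher and 29.3% lower) and 45.6% of the 529 other short rows. The share of members called was thus below the background. Their median difference was -0.22 beside 0.13 over all genes. By unadjusted p under 0.05, 29 members differed (24.2%, beside 71.4% of all genes). Leaving out mock, ANG 24 h or EGF 5 h gave 4 higher members and leaving out EGF 1 h gave 11, and without EGF 5 h 38 were lower. Fewer cells of a type and less RNA per cell cannot be told apart in such bulk samples. Depth did not overlap between the lines, and its part in these differences was not tested.

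Because the members moved with the short-row share within a line, all short rows were also divided by their library's share of such reads. On this rescaled level 35 members were higher and 39 lower in Panc-1 (61.7%, beside 69.7% of all genes), with a median difference of -0.06. Members made up 30.2 to 40.1% of the share used, so the small median and the near-even counts are partly built in. Counts with the share of other short rows alone are given in the last section. Of the 27 members called on the deposited scale, 26 were called on the same side after rescaling. SCARNA21 was the exception. SCARNA2, counted among the 26, has a row of 420 bp and was not rescaled. With deposited levels, the 7 Panc-1 and 7 AsPC-1 libraries did not overlap for 1 member, SNORA11C, beside 45% of all genes. SNORA11C had 1 to 3 reads in Panc-1, against 0 or 1 in AsPC-1, so libraries of both lines held 1 read, which counts for more RPKM at the lower depth of Panc-1. After rescaling they did not overlap for 28 members, 14 above and 14 below AsPC-1, beside 45.4% of all genes.

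SCARNA6 and SCARNA5, mixed-domain RNAs with C/D and H/ACA parts, had the largest decreases in Panc-1. SCARNA6 had 340, 619 and 926 RPKM as lowest, median and highest value in Panc-1, against 831, 2643 and 3785 RPKM in AsPC-1. Its log2 difference was -2.04 ± 0.27 (SE, 7 pairs, limma adjusted p 0.00015), and after rescaling -1.88 ± 0.07. The lines overlapped only through the AsPC-1 library with EGF for 5 h, at 831 RPKM, where short rows took 5.29% of the reads. SCARNA5 had 849, 2241 and 3341 RPKM in Panc-1 against 2335, 8232 and 11191 RPKM in AsPC-1, a log2 difference of -1.89 ± 0.36 (adjusted p 0.0014 in limma). After rescaling it lay at 1784 to 2277 RPKM in Panc-1, against 4843 to 7909 RPKM in AsPC-1, without overlap. The other mixed-domain members were SCARNA12, called lower at 327, 467 and 639 RPKM in Panc-1 against 512, 854 and 1013 RPKM in AsPC-1 (log2 difference -0.80), and SCARNA10, which did not pass, with medians of 614 RPKM in Panc-1, against 740 RPKM in AsPC-1.

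Of the C/D small Cajal body RNAs, SCARNA2, which guides methylation of the U2 spliceosomal RNA, was called lower in Panc-1 (334, 664 and 866 RPKM, against 608, 1320 and 1666 RPKM in AsPC-1, log2 difference -0.97 ± 0.23). Its row spans 420 bp and is not rescaled. SCARNA7, SCARNA9, SCARNA9L and SCARNA17 did not pass, with log2 differences of -0.17, 0.26, 0.07 and 0.03. SCARNA9 passed after rescaling (0.42). SCARNA13, an RNA with a tandem of H/ACA units, was called lower (-0.61 ± 0.21), but not without ANG 1 h, ANG 5 h or EGF 1 h. SCARNA18 (-1.19) and SCARNA21 (-0.56) were called lower too.

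Higher in Panc-1 were SCARNA15, SCARNA14 and SCARNA16, all H/ACA RNAs with ACA near the end. SCARNA15 had 45.95, 156 and 324 RPKM in Panc-1, against 6.91, 40.2 and 72.0 RPKM in AsPC-1. That was a log2 difference of 1.83 ± 0.46 (adjusted p 0.0065 in limma). SCARNA14 had 262, 745 and 1232 RPKM in Panc-1, against 74.2, 286 and 520 RPKM in AsPC-1, a log2 difference of 1.27 ± 0.37. Both were without overlap after rescaling. SCARNA16, a guide to the U1 spliceosomal RNA, had medians of 1719 RPKM in Panc-1, against 1215 RPKM in AsPC-1 (log2 difference 0.65), and its call was lost without mock, ANG 24 h or EGF 5 h. Not past the test were SCARNA1, SCARNA3, SCARNA4, SCARNA8, SCARNA11, SCARNA20, SCARNA22, SCARNA23 and SCARNA27, with log2 differences from -0.63 in SCARNA3 to 0.22 in SCARNA1.

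Of the SNORA members, 13 were lower and 4 higher in Panc-1. SNORA26 had 279, 556 and 742 RPKM in Panc-1 against 456, 1429 and 2078 RPKM in AsPC-1 (log2 difference -1.28 ± 0.29). SNORA41 had 2511, 8713 and 10248 RPKM in Panc-1 against 5412, 18899 and 25852 RPKM in AsPC-1 (-1.26 ± 0.39, adjusted p 0.019 in limma). Its call was lost without the ANG 1 h pair. SNORA64, a guide to the large-subunit ribosomal RNA, had 2153, 4764 and 7246 RPKM in Panc-1 against 4045, 11082 and 15565 RPKM in AsPC-1 (-1.11 ± 0.30). SNORA24 had 1782, 3556 and 5749 RPKM in Panc-1 against 2978, 7739 and 9940 RPKM in AsPC-1 (-0.98 ± 0.27). SNORA11B (-1.12), SNORA60 (-1.09), SNORA71A (-1.02), SNORA76 (-0.99), SNORA71C (-0.87), SNORA47 (-0.82), SNORA77 (-0.81) and SNORA21 (-0.71) were called lower on the same scale. SNORA29 (-1.16) rested on 1 to 5 reads per library in Panc-1, against 4 to 15 in AsPC-1.

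SNORA80B had 307, 693 and 1175 RPKM in Panc-1, against 97.1, 367 and 547 RPKM in AsPC-1 (log2 difference 1.06 ± 0.36). SNORA56 had 423, 1207 and 2013 RPKM in Panc-1, against 207, 639 and 922 RPKM in AsPC-1 (0.89 ± 0.34, adjusted p 0.044 in limma). SNORA36C was at 13.6, 31.1 and 44.6 RPKM in Panc-1, against 6.91, 15.8 and 28.96 RPKM in AsPC-1 (0.85 ± 0.25). SNORA11C passed as well, but its 0 to 3 reads per library give no fold. Of the other members always described, SNORA74A (-0.38), SNORA62 (-0.59), SNORA63 (0.05), SNORA70 (0.08) and SNORA31 (-0.53) did not pass the line test. In 19 of the 27 calls, 4 higher and 15 lower, the call held without any 1 of the 7 conditions. The other 8 were SCARNA13, SCARNA16, SNORA21, SNORA41, SNORA47, SNORA56, SNORA77 and SNORA80B.

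**Figure D4:**
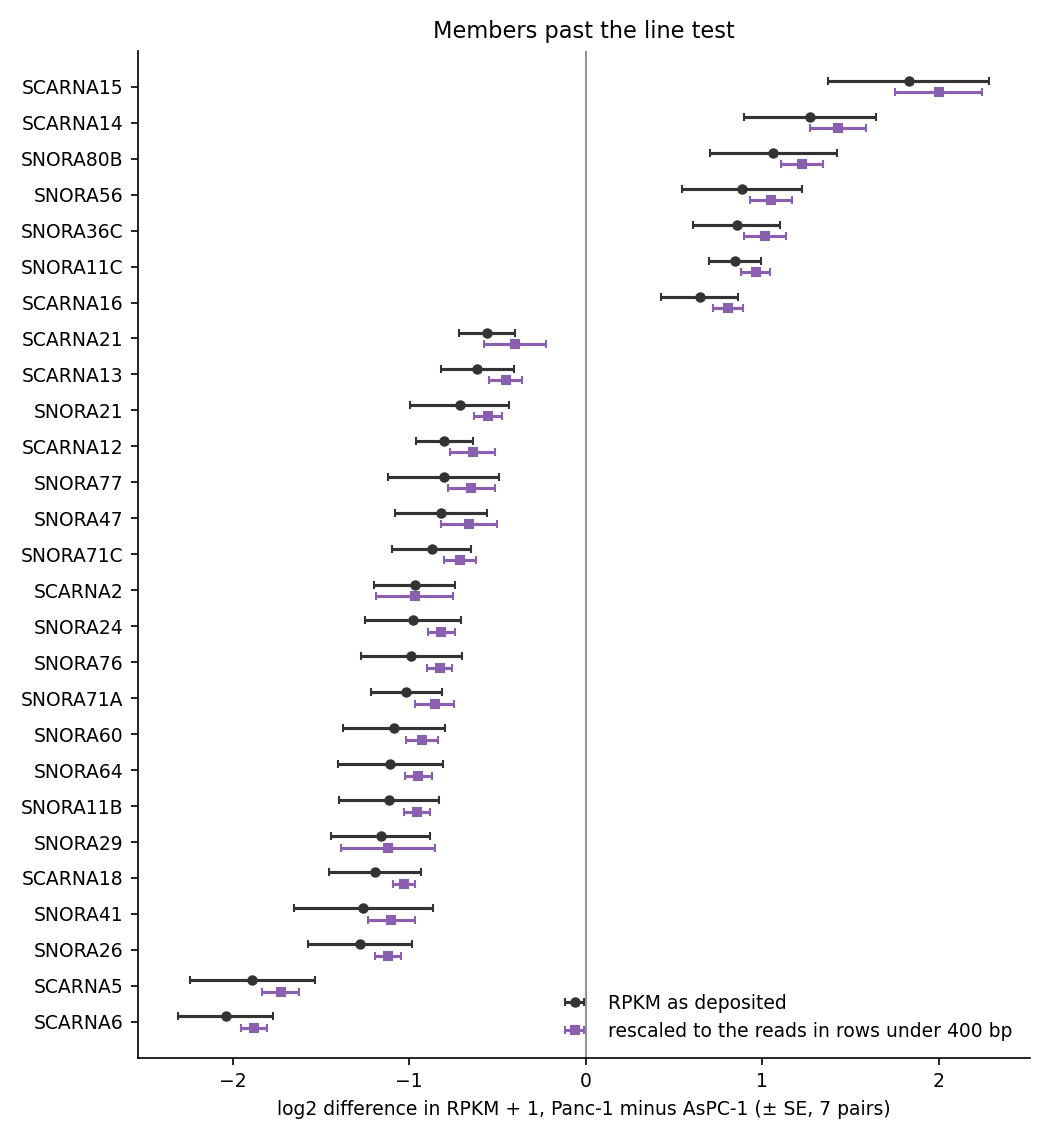
Log2 difference in RPKM + 1, Panc-1 minus AsPC-1, with its standard error over 7 pairs of condition, for the 27 members past the line test, on the deposited scale (circles) and after rescaling to the reads in rows under 400 bp (squares). SCARNA15 lay highest at 1.83 and SCARNA6 lowest at -2.04, and rescaling narrowed most error bars while keeping the side of each.

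The line differences of the members were set beside those of their host genes. Whether a host's row also counts reads from its introns, and so from the member, is not given in the sources used here. A row on the same strand that spans the member was found for 110 members, with 88 different hosts, and for 109 of them the host was tested. ATG16L1, a gene of autophagosome formation and host of SCARNA5 and SCARNA6, had 19.2 to 32.8 RPKM in Panc-1, against 64.8 to 155 RPKM in AsPC-1, a log2 difference of -2.07 ± 0.10 (limma adjusted p 2.1e-07). TIPIN, a replication fork protein gene and host of SCARNA14, had 9.14 to 19.4 RPKM in Panc-1, against 3.93 to 5.65 RPKM in AsPC-1 (log2 difference 1.401 ± 0.137). In both genes the host and its small RNA differed by a similar amount and the host's ranges did not overlap.

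C17orf86, host of SCARNA16, was higher in Panc-1 (0.82). EEF1B2, which codes for a translation elongation factor subunit and hosts SNORA41, was lower at 45.9 to 59.6 RPKM in Panc-1, against 83.2 to 132.3 RPKM in AsPC-1 (-0.92). Also lower were KIAA0114, host of SNORA26 (-0.81), SNHG8, host of SNORA24 (-1.03), LOC388796, host of SNORA71A to SNORA71D (-1.42), TMEM167A, host of SCARNA18 (-0.62), and PHB2, host of SCARNA12 (-0.67). Member and host both passed the test in 18 cases, and in 17 of these they lay on the same side. SNORA29 was the exception, at -1.16 against 0.74 for TCP1. With rescaled members, both passed in 48 cases and 44 lay on the same side. Across the 109 members the line differences of rescaled member and host had a Spearman correlation of 0.57 and a Pearson correlation of 0.60, with the same sign in 78. These points share libraries and, where members share a host, the host's value, and they are not independent.

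For some members the call differed from that of the host; the difference between member and host was not tested. SNORA52, in the ribosomal protein gene RPLP2, did not pass as deposited (0.82) and was higher in Panc-1 after rescaling (0.98, at 4337 to 6685 rescaled RPKM in Panc-1, against 1789 to 3336 RPKM in AsPC-1), whereas RPLP2 itself was lower (-0.77 ± 0.08). SNORA56 passed at 0.89 while its host DKC1 had a log2 difference of -0.16 (limma adjusted p 0.19). SNORA80B passed at 1.06, and its host ODC1, the gene of polyamine synthesis, lay on the same side at 0.49 ± 0.34 without passing (0.22). SNORA11B passed at -1.12 with C14orf159 at 0.24 (0.26). SNORA27 was called higher after rescaling (0.53) but not on the deposited scale (0.37), while its host RPL21 did not pass (adjusted p 1.0 in limma).

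By kind of host, 0 higher and 5 lower members were found among the 19 SNORA members in non-coding host genes (rescaled, 3 higher and 12 lower). The 53 in other protein-coding genes held 4 higher and 5 lower ones (rescaled, 20 higher and 12 lower). Among the 17 in ribosomal protein genes 0 were higher and 2 lower (rescaled, 5 and 6), and among the 7 without a host row 0 and 1. The SCARNA members had 3 higher and 7 lower of 24 (rescaled, 5 and 8). Beside these counts, 39.6% of all genes tested were higher and 29.3% lower, and 69.7% were called in either direction on the rescaled level. The classes were not tested against each other, and members that share a host, such as SNORA71A and SNORA71C, are not independent.

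**Figure D5:**
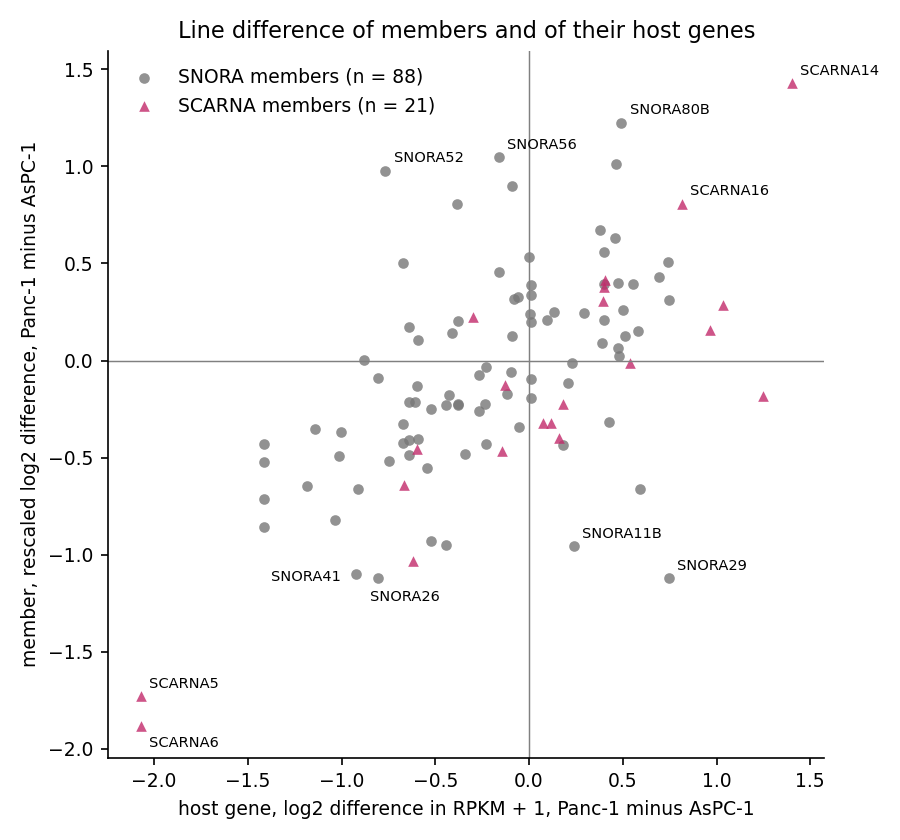
Log2 difference, Panc-1 minus AsPC-1, of 109 members after rescaling (vertical axis) against that of their host gene in RPKM + 1 (horizontal axis), with SNORA members as circles (n = 88) and SCARNA members as triangles (n = 21). SCARNA5 and SCARNA6 lie with ATG16L1 at the lower left and SCARNA14 with TIPIN at the upper right, while SNORA52 and SNORA29 lie opposite to their hosts.

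ANG and EGF were compared over 6 pairs of line and time. No member passed the test (0 of 120, beside 0.156% of all genes), while 59 members (49.2%) had an unadjusted p under 0.05, beside 16% of all genes. All 120 differences were above 0, from 0.05 to 1.11 with a median of 0.62, beside a median of 0.02 over all genes. The lowest adjusted p of a member was 0.12 in limma. ANG was higher in 6 of 6 pairs for 12 members, in 5 for 61, in 4 for 34, in 3 for 11 and in 2 for 2. After rescaling the median was 0.07, no member passed (0 of 120, beside 0.171%) and 34 had an unadjusted p under 0.05, beside 15.7% of all genes.

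The 3 highest differences were those of SNORA53 (1.11 ± 0.34), SCARNA15 (1.07 ± 0.44) and SCARNA3 (1.06 ± 0.32), and the 3 lowest those of SCARNA17 (0.05 ± 0.09), SCARNA7 (0.05 ± 0.08) and SNORA16B (0.09 ± 0.33). The difference of SCARNA15 was 0.65 without the AsPC-1 pair at 5 h and 1.44 without the AsPC-1 pair at 24 h. SNORA53, in SLC25A3, had 3397, 3962 and 6682 RPKM with ANG for 1, 5 and 24 h and 1355, 2612 and 3385 RPKM with EGF in Panc-1. In AsPC-1 it had 8113, 7707 and 3981 RPKM with ANG and 5290, 1003 and 3529 RPKM with EGF. It was higher with ANG in every pair. Pair by pair, the members' median difference in Panc-1 was 0.99, 0.13 and 0.54 at 1, 5 and 24 h, where the log2 ratio of the short-row share was 0.97, 0.03 and 0.51. In AsPC-1 it was 0.33, 1.99 and -0.20, beside log2 share ratios of 0.30, 1.70 and -0.21. The median difference thus lay within 0.3 of the share ratio in every pair. That share includes the members' own reads, so part of this closeness is built in. Rescaled, the medians were 0.06, 0.11 and 0.05 in Panc-1 and 0.03, 0.32 and 0.00 in AsPC-1. The ligand difference was not called different between the lines for any member (0 of 120, beside 0% of all genes), with 0 members at an unadjusted p under 0.05, beside 7.75% of all genes.

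Against mock, in a model with the 2 lines as the repeat, no member passed at any time. With ANG for 1, 5 and 24 h the members' median difference was 1.11, 1.26 and 1.30, and with EGF 0.43, 0.29 and 1.08. The EGF values at 1 and 5 h averaged lines that moved in opposite directions. EGF for 1 h gave Panc-1 a median of -0.25 (15 of 120 members above mock), whereas AsPC-1 had 1.09 (120 above). EGF for 5 h gave Panc-1 a median of 0.87 (113 above), whereas AsPC-1 had -0.28 (37 above). With ANG at each time and EGF for 24 h, the median was positive in each line. Of all genes, 0.0819, 0.112 and 0% passed with ANG and 0.663, 4.22 and 0% with EGF. An unadjusted p under 0.05 was reached by 31, 57 and 54 members with ANG (25.8, 47.5 and 45%), beside 15.4, 17.8 and 1.5% of all genes. With EGF it was reached by 0, 3 and 36 members (0, 2.5 and 30%), beside 17.2, 22.3 and 7.16% of all genes. All 6 comparisons share the mock libraries, which were among the lowest in short rows.

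After rescaling, 9 members passed at 5 h of EGF (7.5%, beside 4.51% of all genes), and 0 did so in the other comparisons with mock, beside 0.0968, 0.127 and 0.00745% of all genes with ANG for 1, 5 and 24 h and 0.678 and 0.00745% with EGF for 1 and 24 h. SNORA62, in the ribosomal protein gene RPSA, was higher: 1824 rescaled RPKM with EGF against 1131 in mock in Panc-1, and 2570 against 1443 in AsPC-1 (log2 difference 0.76 ± 0.14, limma adjusted p 0.028). SCARNA8, a guide to the U2 spliceosomal RNA, was higher too, with 353 rescaled RPKM after EGF against 201 in mock in Panc-1 and 448 against 146 in AsPC-1 (1.21 ± 0.24). SNORA70, in RPL10, was lower, at 3565 rescaled RPKM with EGF against 6638 in mock in Panc-1 and 3371 against 5504 in AsPC-1 (-0.80 ± 0.12, adjusted p 0.020 in limma). SNORA80 had 651 rescaled RPKM with EGF against 1360 in mock in Panc-1, and 631 against 1631 in AsPC-1 (-1.22 ± 0.22). The others lower were SNORA4 (-0.91), SNORA30 (-0.75), SNORA2A (-0.74), SNORA38B (-0.71) and SCARNA6 (-0.64). None of the 9 passed on the deposited scale. Rescaled levels divide by the short-row share, which in Panc-1 was 11.2% with EGF for 5 h against 6.22% in mock. In AsPC-1 that share was 5.29% against 6.03%. A lower rescaled level need not be a lower deposited level.

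Over time, 0 members passed between 5 h and 1 h (beside 0% of all genes) and 0 between 24 h and 1 h (beside 6.36%), in 4 courses of line and ligand. With 24 h against 1 h, 2 members had an unadjusted p under 0.05 (1.67%, beside 25.2% of all genes), the median was 0.41, and 115 of 120 differences were positive. Between 5 h and 1 h, 0 had an unadjusted p under 0.05, beside 1.11% of all genes. After rescaling SNORA39 alone passed at 24 h (0.37 ± 0.08, beside 6.63% of all genes).

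The change from 1 h to 24 h was larger in Panc-1 than in AsPC-1 by the interaction test for 3 members (2.5%, beside 36% of all genes, 13.9% higher and 22.2% lower). The interaction was positive in 119 of 120 members. Its median was 1.24, beside -0.07 over all genes and 0.71 over other short rows, and after rescaling the members' median was 0.18. SNORA47, in ZBED3, had 70.6 RPKM at 24 h and 33.2 at 1 h with ANG in Panc-1, and 57.8 and 21.1 with EGF. In AsPC-1 it had 70.5 RPKM at 24 h and 110 at 1 h with ANG, and 64.9 and 75.6 with EGF. It was thus higher at 24 h in both Panc-1 courses and lower at 24 h in both AsPC-1 courses, an interaction of 1.66 ± 0.42. SNORA36C had 44.6 RPKM at 24 h and 30.5 at 1 h with ANG in Panc-1, and 37.6 and 13.6 with EGF. In AsPC-1 it had 19.5 RPKM at 24 h and 28.96 at 1 h with ANG, and 14.6 and 15.8 with EGF (interaction 1.30 ± 0.40). SNORA29 (1.79 ± 0.39) rested on 1 to 15 reads per library. Without any 1 of the 12 libraries in turn, the call held 11 times for SNORA29, 6 times for SNORA47 and 4 times for SNORA36C. None of the 3 passed without a filter on low values or after rescaling, where SNORA13, SNORA36B and SNORA60 were higher and SCARNA23 and SNORA71A lower (4.17%, beside 36.1% of all genes). Leaving out the AsPC-1 library with ANG for 5 h, with EGF for 5 h or with EGF for 24 h raised the count of higher members to 62, 61 and 27, and leaving out the Panc-1 library with ANG for 24 h, EGF for 1 h or EGF for 24 h, or the AsPC-1 library with ANG for 24 h or EGF for 1 h, reduced it to 1.

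The proteins that bind, assemble or finish these RNAs were read from a list of 26 genes, 24 of them in the files and 23 tested. Dyskerin (DKC1), the pseudouridine synthase, had 54.2, 94.3 and 108 RPKM as lowest, median and highest value in Panc-1 and 55.5, 113 and 138 RPKM in AsPC-1. Of its partners, NOP10 was at 198 to 234 RPKM in Panc-1, against 142 to 198 RPKM in AsPC-1, NHP2 at 26.8 to 40.1 RPKM in Panc-1, against 22.8 to 42.5 RPKM in AsPC-1, and GAR1 at 8.28 to 12.95 RPKM in Panc-1, against 9.95 to 14.4 RPKM in AsPC-1. NAF1, which holds the place of GAR1 during assembly, was at 4.39 to 7.11 RPKM in Panc-1, against 5.61 to 11.1 RPKM in AsPC-1. SHQ1, a chaperone of dyskerin, was at 4.50 to 6.75 RPKM in Panc-1, against 4.15 to 9.94 RPKM in AsPC-1. The telomerase RNA TERC, itself an H/ACA RNA, was at 49.0 to 106 RPKM in Panc-1, against 23.7 to 52.7 RPKM in AsPC-1, while the telomerase protein gene TERT was at most 0.76 RPKM.

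Between the lines, 8 of the 23 genes were higher in Panc-1 and 4 lower (52.2%, beside the 68.8% of all genes, 39.6% higher and 29.3% lower). COIL, the scaffold of Cajal bodies, had 12.04 to 17.7 RPKM in Panc-1, against 5.43 to 7.74 RPKM in AsPC-1 (log2 difference 1.05 ± 0.08, limma adjusted p 5.5e-06), without overlap. RUVBL1 (1.68), RUVBL2 (0.83), TERC (0.99), XRN1 (0.82), PARN (0.67), EXOSC10 (0.53) and NOP10 (0.42) were higher, and NAF1 (-0.51), DIS3 (-0.51), TCOF1 (-0.31) and PAPD5 (-0.22) lower. WRAP53, which brings small Cajal body RNAs to Cajal bodies, did not pass. ANG against EGF gave 0 of 23 calls, with 6 at an unadjusted p under 0.05 (26.1%, beside 16% of all genes).

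DKC1 was the 1 machinery gene called against mock, with EGF for 5 h (4.35% of the 23, beside 4.22% of all genes). With EGF for 5 h it had 108 RPKM against 67.9 in mock in Panc-1 and 138 against 57.7 in AsPC-1 (log2 difference 0.96 ± 0.19, limma adjusted p 0.038). SNORA56 and SNORA36A, which lie within it, had log2 differences of 0.37 and 0.70 in that comparison and did not pass. At 24 h against 1 h, DKC1 (-0.83 ± 0.12), NOLC1 (-0.62), TGS1 (-0.57) and GAR1 (-0.39) were lower and 0 higher (17.4% of the 23, beside 6.36% of all genes in either direction). DKC1 had 54.2 RPKM at 24 h and 94.3 at 1 h with ANG in Panc-1, and 55.5 and 127 in AsPC-1. With EGF it had 74.0 RPKM at 24 h and 97.3 at 1 h in Panc-1, and 68.9 and 136 in AsPC-1. By line, the change from 1 h to 24 h differed for 9 of 23 genes (39.1%, beside 36% of all genes), 2 higher (C12orf45 and NOLC1) and 7 lower in Panc-1, among them RUVBL2 (-1.37), PIH1D1 (-1.29), NHP2 (-1.05) and WRAP53 (-0.90).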

How the data were processed

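Total RNA was extracted with TRIzol, per the labels' protocols, from 7 conditions of each line. The authors deposited log2 RPKM values for 23040 rows per library, with symbol, chromosome, strand, start and end, per the file headers. Per the submitters' processing notes, positions refer to hg19. How reads were aligned, counted, assigned to copies and split by strand is not given in the sources used here. RPKM was recovered as a power of the deposited log2 value, with the lowest value read as a listed 0. Depth was estimated from rows with a span of at most 150 bp, whose values were whole multiples of 1 read, within 0.1, for 100% of the values used.

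Differences were tested with limma 3.58.1 in R 4.3.3 (empirical Bayes with a variance trend) on log2(RPKM + 1) of 13427 genes, with Benjamini-Hochberg adjustment over all of them and a threshold of 0.05. The pseudocount of 1 understates the change of low rows. Lines were blocked by condition, ligands by line and time, times by line and ligand, and comparisons with mock by line. Rescaled levels divide rows under 400 bp by the library's share of reads in such rows, which include the members under 400 bp. For the share itself, signs of the pair differences were flipped in an exact two-sided test. The steps were tested on simulated data. The members, lists and tests were chosen with earlier results of these data known. Genes were named by a rule: the 12 highest members, up to 10 each way among those past a test, or the 3 highest and 3 lowest for ANG against EGF where none passed, every SCARNA member, SNORA74A, SNORA62, SNORA63, SNORA70, SNORA24 and SNORA31, their hosts, and the central machinery genes. For comparisons with mock and over time without a call, medians and counts are given in place of the 3 highest and 3 lowest. SNORA68, SNORA5C, SNORA16A, SNORA52, the members with few reads, and those called beyond 10 were named after their values were seen. SNORA73A and SNORA73B, SMN1 and SMN2 were not analysed here. Sequences came from GENCODE release 29, and 1 member sequence is not reported here.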

Additional observations from a re-analysis of the deposited data

Results flagged for a closer look

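The change from 1 h to 24 h differed between Panc-1 and AsPC-1, by the interaction test in limma over 12 treated libraries, for SNORA29 (1.79 on the log2 scale, on 1 to 15 reads per library), SNORA47 (1.66) and SNORA36C (1.30). Among the 120 members, 119 had a positive value in this test, with a median of 1.24. For SNORA47, both Panc-1 courses were higher at 24 h and both AsPC-1 courses lower. Without 1 library in turn the difference ranged from 1.23 to 2.35 for SNORA29, where the call held in 11 of 12 fits, from 1.19 to 2.13 for SNORA47, in 6 of 12, and from 0.87 to 1.72 for SNORA36C, in 4 of 12. None of the 3 passed without a filter on low values or with short rows rescaled to their share of reads. SNORA47 passed when rescaled to the share of other short rows alone (0.70).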

How the results depend on the processing

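No paired analysis was possible because each group holds 1 library, so no replicate number could serve as a block; the pairs in the tests are of condition, or of line and time. The count of members higher in Panc-1 was 7, and 4 without a filter on low values, 35 with short rows rescaled to their share of reads and 29 when rescaled to the share of other short rows alone, a setting chosen after seeing the data. The count of lower members was 20, against 39 and 43 under the 2 rescalings. Leaving out 1 library gave 4 to 11 higher members (4 without mock, ANG 24 h or EGF 5 h, 11 without EGF 1 h, in either line) and 15 to 38 lower ones (38 without EGF 5 h). For EGF 5 h against mock, both rescalings gave 2 higher and 7 lower members in place of 0, and for 24 h against 1 h both gave 1 higher member in place of 0. For the change over time by line, the count of higher members was 3, and 6 with libraries centred on their median, 0 without a filter and 7 with the rescaling to other short rows; leaving out 1 library gave 1 to 62. The count of lower members there was 0, and 2 after rescaling, and 0 to 1 without 1 library (1 without Panc-1 ANG 1 h). The mean log2 ratio of the short-row share was 0.32 to 0.70 for ANG against EGF and -0.37 to 0.030 for the lines when 1 pair was left out. For ANG against EGF, the difference of SCARNA7 was -0.50 and -0.43 under the 2 rescalings and that of SNORA16B -0.12 and -0.086. Those rescalings divide by shares whose mean log2 ratio, ANG minus EGF, was 0.55 and, without the members, 0.48. Without 1 library SNORA16B ranged from -0.20 to 0.29 and SCARNA17 from -0.0052 to 0.14. Apart from this division, the cause was not tested. A stricter filter and a pseudocount of 0.1 RPKM kept every count within 1.5 times. With 1 read worth 0.32 to 0.68 RPKM in a row as long as SNORA41, values of SNORA29, SNORA16B, SNORA70B and SNORA11C rest on few reads, also where SNORA29 and SNORA11C passed the line test. Where leaving out 1 library left a group of a comparison with mock with a lone library, that library was assumed to vary like the others.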
